A study of Mus musculus with 9 samples.

Results

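The 9 genes described here encode transcription factors of monocytes and macrophages: *Tfec*, *Mitf* and *Tfe3* of the MiT/TFE family, the large Maf factor *Maf*, the Krüppel-like factors *Klf2* and *Klf4*, the orphan nuclear receptor *Nr4a1*, the heme-regulated repressor *Bach1* and the lipid-activated receptor *Pparg*. They were chosen by name, with earlier results of these data known, and they are 9 of the 19937 genes measured. Their counts and medians beside those of all genes are therefore a description and not a test of the set. Expression was compared between 3 populations of Ly6Chi CD115+ cells, which were sorted from the bone marrow (BM) of C57Bl/6 mice of 8 weeks at steady state and are named by their gate: R1 cells are Flt3-CD11c-, those of R2 are Flt3+CD11c- and those of R3 are Flt3+CD11c+. All 3 populations thus share the strain, the tissue, the Ly6Chi CD115+ gate and the absence of treatment, and differ in the Flt3 and CD11c gates. Each population was measured on 3 arrays from 1 ng amplified RNA per sample, and arrays with the same replicate number carry the same label date, with 1 array of each population per date. The labels do not say whether the 3 arrays of a population came from separate mice, so the p-values rest on the spread among these arrays, which may be technical. Values are log2 intensities, and differences are log2 fold changes from a limma fit to all 9 arrays, and a gene is called where its p, adjusted over all genes by Benjamini-Hochberg, is under 0.05.

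The MiT/TFE factors are basic helix-loop-helix leucine zipper proteins that bind E-boxes as dimers and drive genes of lysosomes and autophagy, and *Tfec* is the member known for its restriction to macrophages. Maf and BACH factors are basic leucine zipper proteins: large Maf proteins act in macrophage identity, whereas BACH1 pairs with small Maf proteins and represses heme and iron genes such as *Hmox1* until heme displaces it. KLF2 and KLF4 bind CACCC and GC-rich boxes, KLF4 being required for monocyte formation and KLF2 restraining myeloid activation, NR4A1 is required for Ly6C-low monocytes, and PPARγ controls lipid handling in macrophages. PU.1, an Ets family factor, acts upstream of much of the monocyte program.

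The upstream sequences of the 4 members on which the comparisons turn are shown here, since these genes differed most clearly between the populations and their known regulators can be read against the letters. Sequences were taken from RefSeq (GRCm38.p6), which held an entry for 8 of the 9 members, and are written 5′ to 3′ on the strand of the gene, without bases inside the gene. They lie at chr6:16898465-16898691 (minus strand, *Tfec*), chr4:55532476-55532725 (minus strand, *Klf4*), chr16:87698704-87698953 (plus strand, *Bach1*) and chr8:72318812-72319061 (plus strand, *Klf2*). Capitals mark matches to the motifs given after the sequences.
Tfec: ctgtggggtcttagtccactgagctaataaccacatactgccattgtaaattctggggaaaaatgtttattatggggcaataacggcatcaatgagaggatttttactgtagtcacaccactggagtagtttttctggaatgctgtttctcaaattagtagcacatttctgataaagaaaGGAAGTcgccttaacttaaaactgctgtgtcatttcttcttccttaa
Klf4: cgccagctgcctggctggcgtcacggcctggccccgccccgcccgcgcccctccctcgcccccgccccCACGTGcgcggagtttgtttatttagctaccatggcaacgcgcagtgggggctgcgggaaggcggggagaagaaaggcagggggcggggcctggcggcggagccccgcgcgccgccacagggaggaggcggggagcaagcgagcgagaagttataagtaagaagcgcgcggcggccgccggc
Bach1: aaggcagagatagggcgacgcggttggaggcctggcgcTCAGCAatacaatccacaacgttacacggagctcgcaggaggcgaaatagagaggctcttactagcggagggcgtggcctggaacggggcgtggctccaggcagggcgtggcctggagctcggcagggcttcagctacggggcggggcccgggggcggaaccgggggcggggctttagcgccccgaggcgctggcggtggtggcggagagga
Klf2: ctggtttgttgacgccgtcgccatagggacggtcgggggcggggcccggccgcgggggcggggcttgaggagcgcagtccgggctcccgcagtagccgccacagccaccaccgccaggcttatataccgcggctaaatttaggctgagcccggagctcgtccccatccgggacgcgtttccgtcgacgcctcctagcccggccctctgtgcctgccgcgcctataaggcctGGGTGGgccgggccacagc

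Letters were searched on both strands of the upstream bases, and distances are counted from the transcription start of the RefSeq entry to the first base of the match. The *Tfec* sequence has 227 bases, since the bases between its end and that start lie inside the gene and are left out. The *Tfec* sequence held an Ets core (GGAAGT) 70 bases upstream, a motif that was added after the sequences had been read. The *Klf4* sequence held an E-box (CACGTG), the letters bound by MiT/TFE factors, 182 bases upstream. A Maf site (TGCTGA) stood on the other strand of the *Bach1* sequence 212 bases upstream, and a KLF box (CCACCC) stood on the other strand of the *Klf2* sequence 19 bases upstream. Among the 250 upstream bases of all 32851 promoters in the table, 19.7% held the Ets core, 6.0% the E-box, 16.1% the Maf site and 28.1% the KLF box. The other motifs searched were the M-box TCATGTG (3.3% of promoters), the AP-1 type core TGACTCA (4.5%), the NBRE core AAGGTCA bound by NR4A proteins (4.1%) and the nuclear receptor site AGGTCA, whose letters also lie within the NBRE core (14%). Of the members not printed, *Mitf* held matches to the Maf site, the NBRE core and the KLF box and *Pparg* to the nuclear receptor site and the KLF box. These are letters in a window and not binding sites.

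The sort was checked in the same arrays. *Itgax*, which encodes CD11c, lay between 10.70 and 10.85 in R3, between 5.30 and 6.18 in R2 and between 5.06 and 5.33 in R1, and *Flt3* lay between 10.99 and 11.09 in R3, between 7.70 and 8.02 in R2 and between 6.74 and 7.78 in R1. *Csf1r*, which encodes CD115, lay between 11.18 and 11.33 in R1, 10.95 and 11.04 in R2 and 10.63 and 10.89 in R3 and was lower in R3 than in R1 by -0.51 (adjusted p = 0.00336). Between R2 and R1 the arrays overlapped for *Flt3* and *Itgax*, and 0 of the 3 measured sort marker genes were called. The RNA values thus set R3 apart but did not check the Flt3 gate between R2 and R1. Ly6C genes were not analysed here, because their probe sets name several genes. Marker lists of other cell types also moved with R3. Of 16 dendritic cell genes, *Flt3* and *Itgax* of the sort gates among them, 11 rose and 1 fell in R3 against R2, and the linear intensities of the other 14 summed to 14060–18320 in R3 and 2583–5379 in R1 and R2. Of 12 plasmacytoid DC genes, 8 rose and 1 fell, with sums of 15950–17870 in R3 and 3201–3940 in the others. Of 13 monocyte genes, 2 rose and 6 fell, with sums of 25620–28940 against 39510–46480. Other lists rested on few genes: 2 of 10 NK cell genes (*Klrd1* and *Klrk1*), 1 of 9 T cell genes (*Thy1*), 1 of 9 B cell genes (*Cd22*) and 1 of 6 erythroid genes (*Tfrc*) rose against R2, and of 14 resident macrophage genes *Cd163* rose and *Adgre1* fell. The 9 stem and progenitor genes other than *Flt3* summed to 1461–1688 in R3 and 1114–1649 in R2, which overlap, and to 842–1041 in R1. R3 replicate 1 stood apart within R3, with a sum of 18590 over 16 neutrophil genes where replicates 2 and 3 had 2540 and 8767 (R1 17080–26060, R2 23940–30200). R1 replicate 1 had the lowest weight in the setting with array weights, 0.294 where the others had 0.859 to 1.98. Sorted populations were measured in bulk, so fewer cells that express a gene and less RNA per cell cannot be told apart, and the part of these markers in the differences of the 9 factors was not tested.

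R3 differed from R2 in 3 of the 9 factors. *Klf4* was higher in R3, and *Tfec* and *Bach1* were lower. Among all genes 9.55% were called in this comparison, 4.85% higher and 4.69% lower. R3 differed from R1 in 5 factors, with *Klf4* again higher and *Tfec*, *Bach1*, *Nr4a1* and *Klf2* lower, where 13.5% of all genes were called, 6.49% higher and 7.02% lower. Between R2 and R1, 1 factor was called, *Klf2*, which was lower in R2, where 0.391% of all genes were called (0.211% higher and 0.181% lower). Dim genes, whose highest population mean did not exceed the median gene mean, lower these shares. Of the 10312 genes left without them, 2067 were called for R3 against R2, 2948 for R3 against R1 and 109 for R2 against R1. Of the 8 factors among them, all but *Maf*, 3, 7 and 1 were called. The arrays of R3 and R2 did not overlap for 4 factors (*Tfec*, *Mitf*, *Klf4* and *Bach1*), as for 24.8% of all genes. Those of R3 and R1 did not overlap for 7 factors, all but *Tfe3* and *Pparg*, as for 24.5% of all genes, and those of R2 and R1 for 5 (*Tfec*, *Mitf*, *Klf2*, *Nr4a1* and *Bach1*), as for 13.4%. For *Mitf* the R1 replicate 2 and R2 values were both 7.06 as printed, so they were separated by less than the printed digits. The median log2 fold change of the 9 factors was -0.17 for R3 against R2, -0.48 for R3 against R1 and -0.19 for R2 against R1, whereas that of all genes was -0.01, -0.02 and -0.02. The comparisons with R3 share its 3 arrays, and likewise those with R1 and R2 share theirs. The adjustment ran separately in each comparison. Estimates of equal size and SE can thus be called where many genes are called and not where few are. The counts of called factors are therefore not a measure of how far the populations differ. Without R3 replicate 1 the same 3 and 5 factors were called in R3 against R2 and R1, and 0 in R2 against R1. Without the 3 arrays of replicate 1, *Tfec* was the only factor called between R3 and R2, and without those of replicate 2, 3 factors (*Tfec*, *Klf4* and *Bach1*) were called between R3 and R1.

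**Figure D1:**
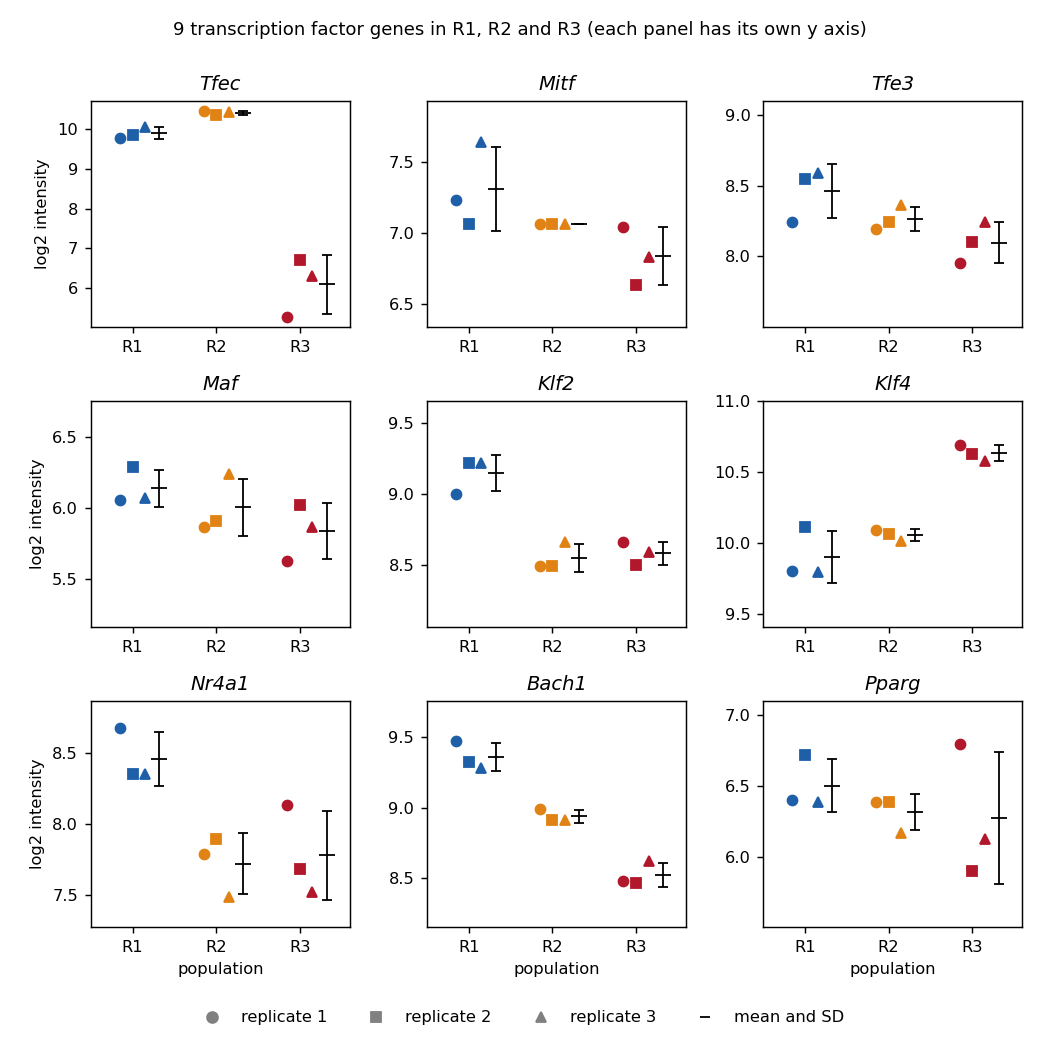
Log2 intensity (y axis, a separate range in each panel) of the 9 factors in the 3 arrays of R1, R2 and R3, with the mean and SD of each population. *Tfec* lies at 9.77 to 10.46 in R1 and R2 and at 5.27 to 6.71 in R3, *Klf4* is highest in R3, *Bach1* descends from R1 to R3, and *Klf2* is highest in R1.

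*Tfec* showed the largest change of the 9 factors. Its log2 intensity was 9.77, 9.87 and 10.07 in R1, 10.46, 10.36 and 10.43 in R2, and 5.27, 6.71 and 6.30 in R3 (replicates 1 to 3). Every R3 array lay far below every R1 and R2 array, and the R2 arrays lay just above those of R1. Means were 9.90 ± 0.15, 10.42 ± 0.05 and 6.09 ± 0.74 (SD, n = 3 each). *Tfec* was 20.0-fold lower in R3 than in R2 (log2 fold change -4.32, SE 0.30, adjusted p = 2.01e-05). It was 14-fold lower in R3 than in R1 (-3.81, SE 0.30, adjusted p = 3.32e-05). On the 3 dates the difference between R3 and R2 was -5.19, -3.65 and -4.13, so that R3 was far lower each time.

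In R3, *Tfec* was dim, so the size of the fold depends on the treatment of low intensities: with 50 added to each intensity the log2 fold changes were -3.55 against R2 and -3.06 against R1. It exceeded 91.6%, 99.5% and 98.6% of 1027 olfactory receptor genes, which are not known to be used in monocytes, on the 3 arrays, and exceeded all of them on every R1 and R2 array. R3 replicate 1 had the lowest *Tfec* level of R3 and the highest sum of neutrophil genes. Without this array the differences of R3 from R2 and R1 were -3.91 and -3.40 on the log2 scale. The difference between R2 and R1 was smaller, at 0.51 (SE 0.30, 95% interval -0.15 to 1.18), and did not pass the test (adjusted p = 0.618) although the arrays did not overlap.

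The relatives of *Tfec* differed much less. *Mitf*, the melanocyte and osteoclast factor of the family, was at 7.23, 7.06 and 7.64 in R1, at 7.06 on all 3 R2 arrays, and at 7.04, 6.63 and 6.83 in R3. The R3 arrays lay below all others, by a narrow margin, and the R2 value was identical on all 3 arrays in the deposited table, so R2 added no spread to its error. The differences of R3 from R2 (-0.22, SE 0.15, adjusted p = 0.530) and from R1 (-0.48, SE 0.15, adjusted p = 0.0716) did not pass the test, and the second did without R1 replicate 2 (adjusted p = 0.0384). *Tfe3*, a broadly used lysosomal regulator, was at 8.24, 8.55 and 8.59 in R1, 8.19, 8.24 and 8.36 in R2, and 7.95, 8.10 and 8.24 in R3. Its populations overlapped. It differed from R2 by -0.17 (SE 0.11, adjusted p = 0.514) and from R1 by -0.37 (SE 0.11, adjusted p = 0.067), the latter being called with the label date as a block (adjusted p = 0.0185) or without R1 replicate 1 (adjusted p = 0.0153). *Tfeb*, the remaining family member, differed by -0.03 and -0.17 in R3 from R2 and R1 (SE 0.10 each, adjusted p = 0.925 and 0.375).

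**Figure D2:**
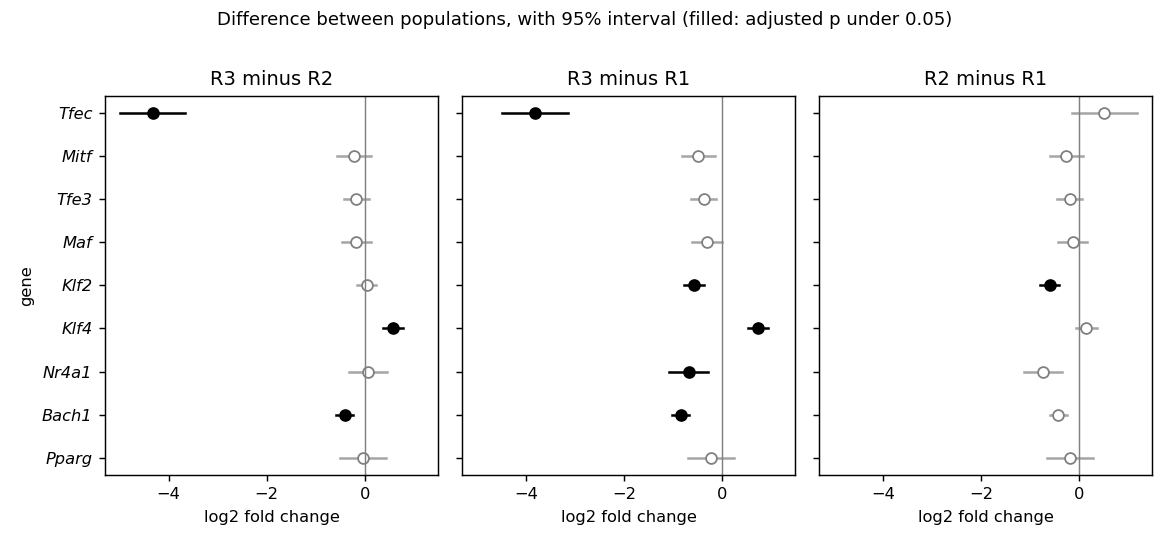
Log2 fold change (x axis) of each factor in the 3 comparisons, with its 95% interval from the limma fit to 9 arrays, filled where the adjusted p was under 0.05. *Tfec* stands apart at -4.32 and -3.81 for R3, *Klf4* is the factor called higher in R3, and *Klf2* is the factor called between R2 and R1.

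Genes that act with or downstream of MiT/TFE factors were mostly lower in R3 where they were called. Of 29 measured partners and lysosomal genes, 10 fell below R2 in R3 and 2 exceeded it, with a median log2 fold change of -0.20. Among all genes 4.69% fell and 4.85% rose, with a median of -0.01. Against R1, 11 fell below and 1 above, with a median of -0.30, and 0 were called between R2 and R1. Among all genes 7.02% fell and 6.49% rose against R1, with a median of -0.02. The lists below stand beside the same shares, which are higher with dim genes left out (2067 of 10312 called against R2). No list was tested against other genes. With single arrays left out, 7 to 10 were lower against R2 and 9 to 14 against R1. The protease *Ctsd* (-1.26 against R2, adjusted p = 0.00701, and -1.48 against R1, adjusted p = 0.00217), the galactosidase *Gla* (-1.15, adjusted p = 0.00547, and -1.12, adjusted p = 0.00486) and the proton pump subunit *Atp6v1a* (-1.01, adjusted p = 0.00247, and -1.22, adjusted p = 0.000615) were lower in R3 in both comparisons. The sialidase *Neu1* was lower as well (-0.87, adjusted p = 0.013, and -1.01, adjusted p = 0.00459), although the first call was lost without R2 replicate 3 (adjusted p = 0.0598). The autophagy gene *Uvrag* was higher in R3 than in R2 by 0.49 (adjusted p = 0.00437) and than in R1 by 0.41 (adjusted p = 0.00815). The acid phosphatase *Acp5*, a known MITF target of osteoclasts, was higher than in R2 by 1.14 (adjusted p = 0.0233), a call that was lost without R2 replicate 1 or 2 or R3 replicate 1 or 3 (adjusted p up to 0.0971).

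*Maf* itself was not called in any comparison. It was at 6.06, 6.29 and 6.07 in R1, 5.87, 5.91 and 6.24 in R2, and 5.63, 6.02 and 5.87 in R3, dim values that exceeded 95.6% to 99.0% of the olfactory receptor genes. The R3 arrays lay below those of R1 and among those of R2. R3 differed from R1 by -0.30 (SE 0.13, 95% interval -0.60 to -0.00, adjusted p = 0.202) and from R2 by -0.17 (SE 0.13, adjusted p = 0.602). Of the 6 family members measured, the small Maf gene *Mafg*, whose product is a partner of BACH1, was the one called, and it was lower in R3 by -0.64 against R2 (adjusted p = 0.00372) and by -0.56 against R1 (adjusted p = 0.00575).

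Macrophage genes linked to large Maf factors did not move together. Of 15 genes, 1 rose and 2 fell in R3 against R2, likewise against R1, and the medians were 0.04 and -0.02. The hemoglobin scavenger receptor gene *Cd163* was higher in R3 (1.42 against R2, adjusted p = 0.000184, and 2.06 against R1, adjusted p = 1.42e-05). The F4/80 gene *Adgre1* was lower (-1.99, adjusted p = 7.99e-05, and -2.72, adjusted p = 8.49e-06), as was the mannose receptor gene *Mrc1* (-0.63, adjusted p = 0.00503, and -0.42, adjusted p = 0.029), whose second call was lost without R1 replicate 1 or 2, R2 replicate 3 or any single R3 array (adjusted p up to 0.0999). *C1qa*, *C1qb* and *C1qc*, complement genes of mature macrophages, were not called, with differences of 0.10, 0.03 and 0.22 between R3 and R2. *Pf4*, the lowest point of this list in the plot of pathway genes and chosen here after its values were seen, ranged from 4.68 to 9.35 within R2 and was not called.

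*Klf4* was the one factor that was higher in R3. It was at 9.80, 10.11 and 9.79 in R1, 10.09, 10.06 and 10.01 in R2, and 10.69, 10.63 and 10.58 in R3. All R3 arrays lay above all others, and R1 and R2 overlapped. *Klf4* was 1.5-fold higher in R3 than in R2 (log2 fold change 0.58, SE 0.09, adjusted p = 0.00352) and 1.66-fold higher than in R1 (0.73, SE 0.09, adjusted p = 0.000712), whereas R2 and R1 differed by 0.15 (95% interval -0.06 to 0.36, adjusted p = 0.646). On the 3 dates R3 exceeded R2 by 0.60, 0.57 and 0.57, nearly the same amount each time. With 2 arrays per population, leaving out replicate 1 (adjusted p = 0.0632) or replicate 3 (adjusted p = 0.0637) ended the call against R2.

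*Klf2* separated R1 from the other populations instead. It was at 9.0, 9.22 and 9.22 in R1, 8.49, 8.49 and 8.66 in R2, and 8.66, 8.50 and 8.59 in R3. All R1 arrays lay above all others, and R2 and R3 overlapped. *Klf2* was 1.48-fold lower in R3 than in R1 (log2 fold change -0.57, SE 0.09, adjusted p = 0.00234) and differed by 0.04 between R3 and R2 (95% interval -0.16 to 0.23, adjusted p = 0.911). It was 1.52-fold lower in R2 than in R1 (-0.60, SE 0.09, adjusted p = 0.0354). The latter call was lost with the label date as a block (adjusted p = 0.0641) and without R1 replicate 2 (0.126) or 3 (0.062), R2 replicate 1 (0.158), 2 (0.194) or 3 (0.093), or R3 replicate 1 (0.0639) or 3 (0.0569), and leaving out all arrays of replicate 2 ended the call of R3 against R1 (adjusted p = 0.0872).

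The wider KLF family, 17 genes, held members of both directions. In R3, 2 rose and 1 fell against R2 (4 and 2 with the label date as a block), and 3 rose and 4 fell against R1. *Klf13* was lower in R3 than in R1 by -0.74 (adjusted p = 0.000787) and *Klf10*, a gene induced by TGF-β, by -0.64 (adjusted p = 0.0115). *Klf16* was higher in R3 than in R1 by 0.69 (adjusted p = 0.0128). *Klf8* (0.99, adjusted p = 0.0302) and *Klf9* (-0.52, adjusted p = 0.0192) were also called against R1, and *Klf11* (0.56, adjusted p = 0.0397) and *Klf13* (-0.44, adjusted p = 0.0191) against R2, and each of these 4 calls was lost without at least 4 of the 9 single arrays. Of 12 measured genes known as targets of KLF2 or KLF4, 2 rose and 1 fell in R3 in each comparison. They were the integrin gene *Itgb7* (0.74 against R2, adjusted p = 0.000324, and 0.53 against R1, adjusted p = 0.00193), *Cd163*, and the high-affinity Fc receptor gene *Fcgr1* (-1.57, adjusted p = 0.0261, and -2.08, adjusted p = 0.00473). The call of *Fcgr1* against R2 was lost without R2 replicate 1 or 3 or R3 replicate 1 or 2 (adjusted p up to 0.113).

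**Figure D3:**
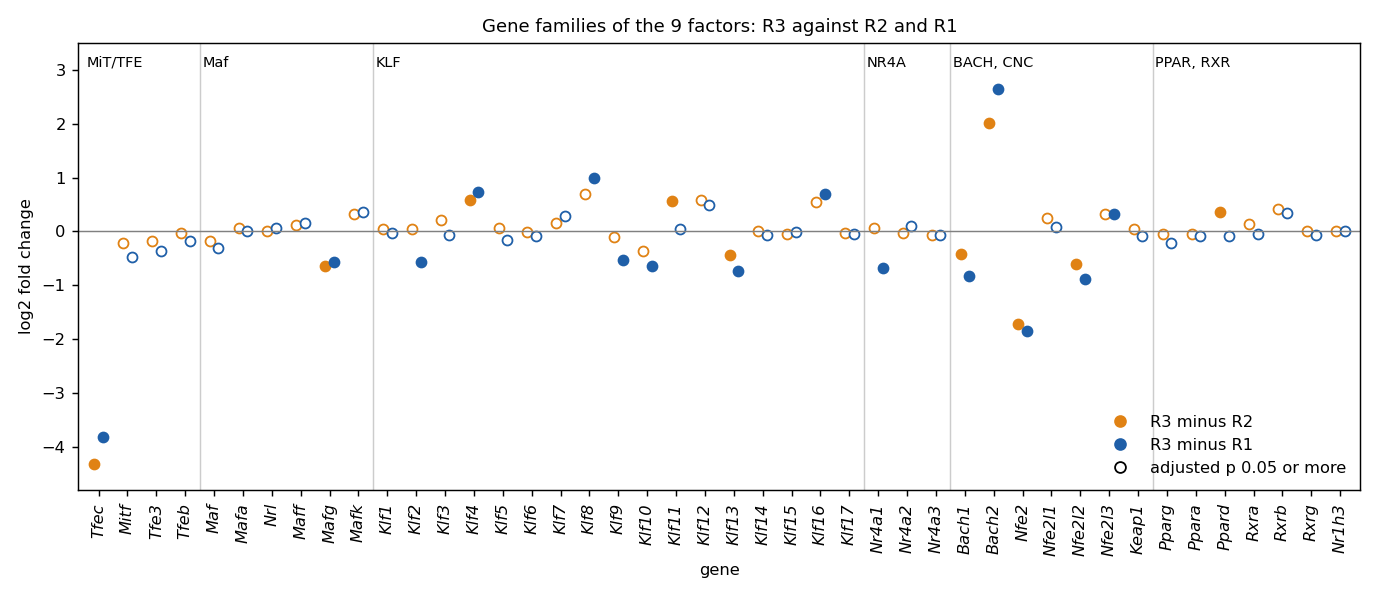
Log2 fold change of R3 against R2 and R3 against R1 (y axis) for the measured genes of the 6 families of the factors (x axis), filled where the adjusted p was under 0.05. *Tfec* is the gene of the MiT/TFE family that was called, the KLF family holds filled points on both sides of 0, and *Bach2* lies above 0 while *Bach1*, *Nfe2* and *Nfe2l2* lie below.

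*Nr4a1* was highest in R1. It was at 8.68, 8.35 and 8.35 in R1, 7.79, 7.89 and 7.48 in R2, and 8.13, 7.68 and 7.52 in R3. All R1 arrays lay above all others, and R2 and R3 overlapped, R3 replicate 1 being the highest outside R1. *Nr4a1* was 1.61-fold lower in R3 than in R1 (log2 fold change -0.68, SE 0.17, adjusted p = 0.0287). It was 1.67-fold lower in R2 than in R1 by estimate, but this did not pass the test (-0.74, SE 0.17, 95% interval -1.13 to -0.35, adjusted p = 0.136), and R3 and R2 differed by 0.06 (SE 0.17, adjusted p = 0.930), with the opposite sign without R3 replicate 1 (-0.12). The call of R3 against R1 was lost without R1 replicate 1 (adjusted p = 0.0869), 2 (0.0567) or 3 (0.0509), R2 replicate 1 (0.0502), or R3 replicate 2 (0.0956) or 3 (0.0922). The relatives *Nr4a2* and *Nr4a3* differed by -0.03 and -0.07 between R3 and R2 and by 0.11 and -0.06 between R3 and R1, and neither was called.

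NR4A1 is known from Ly6C-low monocytes and from the immediate response to stimulation. Genes of both kinds were called in both directions, but the immediate early genes called in R3 against R1 were mostly lower. *Nr4a1* was also lower in that comparison. Between R3 and R2 it differed by 0.06 and was not called, unlike *Fos* and *Rhob*, which were lower in R3 there as well. Of 19 measured Ly6C-low monocyte genes, 5 rose and 2 fell in R3 against R2, and 4 rose and 6 fell against R1 (4 to 5 with single arrays left out). *Itgax*, on which R3 was sorted, *Pecam1* (1.51 against R2, adjusted p = 0.000749), the fractalkine receptor gene *Cx3cr1* (0.63, adjusted p = 0.00993) and *Spn*, which encodes CD43 (0.54, adjusted p = 0.000576), were higher in R3. *Cebpb*, whose product is required for Ly6C-low monocytes, was lower by -1.52 (adjusted p = 1.59e-05) and *Ceacam1* by -1.40 (adjusted p = 2.53e-05). Of 24 immediate early genes, 3 rose and 4 fell in R3 against R2 (5 and 3 with the label date as a block, and 2 to 4 and 3 to 4 with single arrays left out), and 1 rose and 6 fell against R1. *Fos* was lower in R3 by -1.36 against R2 (adjusted p = 2.65e-05) and -1.45 against R1 (adjusted p = 1.37e-05), *Rhob* by -2.22 (adjusted p = 5.96e-05) and -2.39 (adjusted p = 2.7e-05), and *Ier5* was higher by 0.89 (adjusted p = 0.000168) and 0.44 (adjusted p = 0.00811). Of both lists, 0 genes were called between R2 and R1, with medians of -0.28 and -0.13.

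*Bach1* descended from R1 over R2 to R3. It was at 9.47, 9.32 and 9.28 in R1, 8.99, 8.91 and 8.91 in R2, and 8.48, 8.47 and 8.62 in R3. No array of one population overlapped those of another. *Bach1* was 1.78-fold lower in R3 than in R1 (log2 fold change -0.83, SE 0.08, adjusted p = 9.92e-05) and 1.33-fold lower than in R2 (-0.41, SE 0.08, adjusted p = 0.00811). The estimate for R2 against R1 was as large (-0.42, SE 0.08, 95% interval -0.59 to -0.25), but its adjusted p was 0.0737. On the 3 dates R3 differed from R2 by -0.51, -0.45 and -0.28, and leaving out the arrays of replicate 1 (adjusted p = 0.0742) or replicate 2 (adjusted p = 0.157) ended the call. Between R2 and R1 the gene was called with array weights (adjusted p = 0.0282) or with 50 added to each intensity (adjusted p = 0.041).

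The closest relative of *Bach1* ran the other way. *Bach2*, which encodes the lymphoid repressor of the family, was at 4.90, 5.75 and 5.18 in R1, 5.96, 5.73 and 6.06 in R2, and 7.79, 8.07 and 7.93 in R3. All R3 arrays lay above all others, and the differences of R3 from R2 and R1 were 2.02 (SE 0.19, adjusted p = 0.000167) and 2.65 (SE 0.19, adjusted p = 2.31e-05). Of the 10 genes of the BACH and CNC family and its partners, 4 were lower in R3 in each comparison, namely *Bach1*, *Mafg*, *Nfe2*, which encodes the CNC factor of megakaryocytes and erythroid cells (-1.71 against R2, adjusted p = 1.42e-05), and *Nfe2l2*, which encodes the antioxidant factor NRF2 (-0.60, adjusted p = 0.0122). The call of *Nfe2l2* against R2 was lost without R2 replicate 3 or R3 replicate 1 (adjusted p up to 0.0526).

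Of the heme, iron and redox genes listed here as BACH1 targets, most were not called, and those called were mostly lower in R3, where *Bach1* was lower. Of 18 heme, iron and redox genes, 3 fell and 1 rose in R3 against R2, 5 fell and 1 rose against R1, and 0 were called between R2 and R1. With single arrays left out, 2 to 4 fell against R2 and 3 to 6 against R1. The medians were -0.12, -0.20 and -0.09. *Hmox1*, which encodes the heme-degrading enzyme heme oxygenase 1, was at 10.43, 10.50 and 10.76 in R1, 9.66, 9.74 and 10.01 in R2, and 8.36, 7.85 and 7.52 in R3. Its arrays did not overlap between populations, and the 3 populations had the same order as for *Bach1*, which the arrays within a population did not. *Hmox1* in R3 differed from R2 by -1.89 (SE 0.20, adjusted p = 0.000257) and from R1 by -2.65 (SE 0.20, adjusted p = 2.45e-05), whereas R2 and R1 differed by -0.76 (SE 0.20, adjusted p = 0.170). The biliverdin reductase gene *Blvra* (-0.94 against R2, adjusted p = 0.00259) and the ferritin light chain gene *Ftl1* (-0.89, adjusted p = 0.0147) were lower in R3, the latter not without R2 replicate 2 or 3 or R3 replicate 2 (adjusted p up to 0.0658). The transporter gene *Abcc1* was higher (1.24 against R2, adjusted p = 0.000813, and 1.37 against R1, adjusted p = 0.000339).

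**Figure D4:**
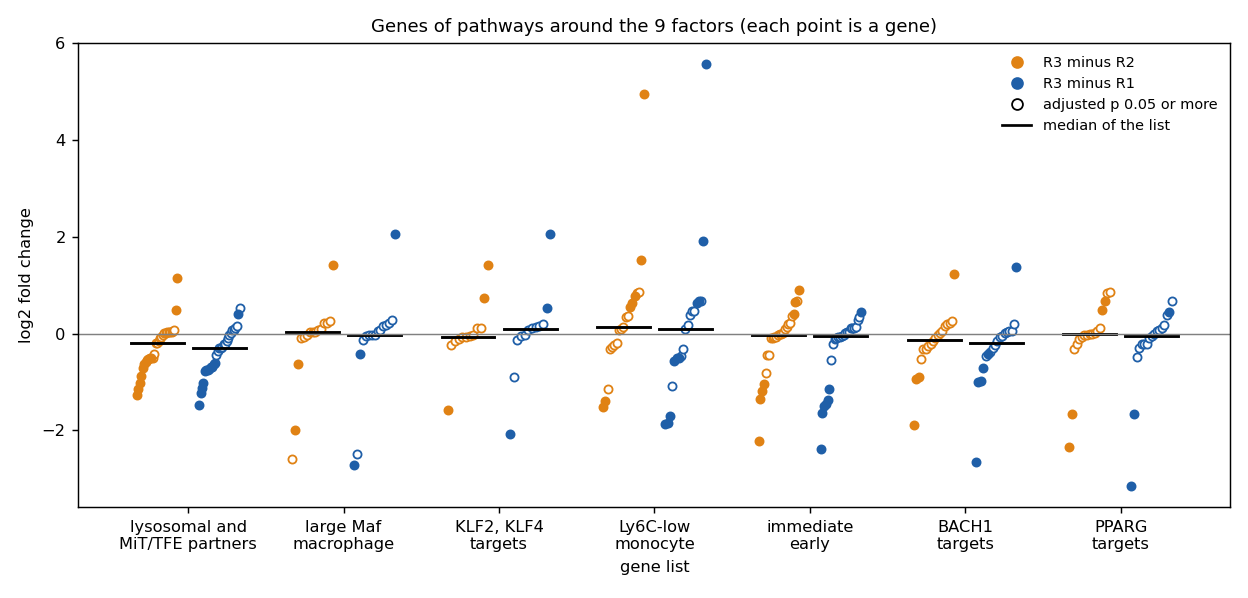
Log2 fold change of R3 against R2 and R3 against R1 (y axis) for each gene of 7 lists around the factors (x axis), filled where the adjusted p was under 0.05, with the median of the list as a bar. Every list has filled points on both sides of 0, and for R3 against R2 the lysosomal list has 10 below and 2 above it.

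*Pparg* was not called in any comparison. It was at 6.40, 6.72 and 6.39 in R1, 6.39, 6.39 and 6.17 in R2, and 6.80, 5.90 and 6.13 in R3, above 97.5% to 99.7% of the olfactory receptor genes. All 3 populations overlapped, and R3 replicate 1 held the highest value of all. R3 differed from R2 by -0.04 (SE 0.21, 95% interval -0.51 to 0.43, adjusted p = 0.965) and from R1 by -0.22 (SE 0.21, 95% interval -0.69 to 0.25, adjusted p = 0.600). The PPARγ targets *Fabp4* and *Cd36* were likewise highest in R3 replicate 1, at 7.18 and 6.85, against 5.78 and 5.51 and 5.06 and 4.63 in the other R3 arrays, and were not called.

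Some other lipid genes of the PPARγ list were called. Of 17 measured, 2 rose and 2 fell in R3 against R2, where 4.85% and 4.69% of all genes did. Against R1, 1 rose and 2 fell (2 to 4 with single arrays left out), where 6.49% and 7.02% of all genes did. With dim genes left out, 2067 and 2948 of 10312 genes were called in these comparisons. The medians of the list were -0.01 and -0.04, close to those of all genes (-0.01 and -0.02). The lipoprotein lipase gene *Lpl* was at 9.37, 9.58 and 9.13 in R1, 8.57, 8.68 and 8.40 in R2, and 6.20, 6.14 and 6.28 in R3. The populations did not overlap, and the difference of R3 from R2 was -2.34 (SE 0.12, adjusted p = 3.76e-06). It was also lower in R2 than in R1 by -0.81 (SE 0.12, adjusted p = 0.0341), a call that was lost with the label date as a block (adjusted p = 0.0601) or without R1 replicate 1 or 2, any single R2 array, or R3 replicate 1 or 3 (adjusted p up to 0.147). The fatty acid binding protein gene *Fabp5* was lower in R3 (-1.66 against R2, adjusted p = 0.00102), and the cholesterol exporter gene *Abca1* was higher (0.68, adjusted p = 0.0013). *Abcg1*, which encodes its partner exporter, was higher than in R2 by 0.48 (adjusted p = 0.0322), a call lost without any single R2 array or R3 replicate 1 or 3 (adjusted p up to 0.124). Of the 7 measured genes of the PPAR and RXR family, *Ppard* was called between R3 and R2 (0.37, adjusted p = 0.0344), again not without any single R2 array or R3 replicate 1 or 3 (adjusted p up to 0.134).

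Genes with the most similar pattern over the 9 arrays were found by the root mean square (RMS) difference of gene-centred log2 intensity. For *Tfec* these were *Ctsg*, which encodes the granule protease cathepsin G (RMS difference 0.32), *Plcb1* (0.40) and *Sgms2* (0.46). For *Klf4* they were *Ybx3*, *Extl3* and *Phf6* (0.07 each), and for *Bach1* *Sdad1* (0.09), the lysosomal fucosidase gene *Fuca1* (0.09) and *Tifa* (0.10). For *Klf2* they were *Mfsd6* (0.08), *Dbndd2* (0.10) and *Surf1* (0.10), and for *Nr4a1* *Shkbp1* (0.15), *Mxd4* (0.17) and *Mocs2* (0.17). *Ctsg* belongs to the neutrophil marker list, of which 6 of 16 genes were lower in R3 than in R2 and 10 were not called. The largest falls were those of *Ctsg*, *Mmp8*, *Mpo* and *Elane*. Within R3, the array with the highest sum of this list, replicate 1, had the lowest *Tfec*.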

How the data were processed

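Sorted R1, R2 and R3 cells were measured on Affymetrix Mouse Gene ST arrays after amplification of 1 ng RNA. The authors deposited 1 linear intensity per probe set and array (34760 probe sets), and the sources used here name no background correction, summarization or normalization. Array medians lay between 58.0 and 64.7. Intensities were put on the log2 scale. Of the deposited probe sets, 21640 name 1 gene, and the one with the highest mean was used per gene (19937 genes). Of these probe sets, 21553 matched RefSeq GRCm38.p6, and 0 symbols were updated. *Mitf* has 2 probe sets, with means of 7.07 (used) and 3.77, and the other 8 factors have 1. In all, 1638 probe sets have the same value on the 3 arrays of a population, for reasons not given. Log2 intensities of 9 arrays were fitted with limma 3.58.1 (R 4.3.3), lmFit and eBayes, with 3 populations, no block and 6 residual degrees of freedom, and tested on simulated data. Benjamini-Hochberg adjustment ran over all genes. Signs are first minus second population.

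Same-numbered arrays share a label date. The sources used here do not say what it marks. Deviations from the population means correlated at -0.02 to 0.15 within dates (9 pairs, 4 over 0.1) and at -0.15 to 0.08 between dates (18 pairs, 0 over 0.1). The date as a block was 1 of 23 alternative settings. Named genes were all 9 factors, at most 4 called genes per list, comparison and direction with the largest changes, family relatives, sort markers and the 3 most similar genes. *C1qa*, *C1qb*, *C1qc*, *Pf4*, *Fabp4* and *Cd36* were not called and were named outside this rule. The factors and lists were chosen with earlier results of these data known. Counts of the lists without single arrays were added after seeing the data. The number of arrays limits the precision.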

Additional observations from a re-analysis of the deposited data

How the results depend on the processing

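The lower *Tfec* in R3 against R2 and R1 and the lower *Bach1* in R3 against R1 were called in all 23 alternative settings, with log2 fold changes of -4.66 to -3.55, -4.13 to -3.06 and -0.92 to -0.76. The number of factors called between R2 and R1 (1) fell to 0 under a replicate block of label dates, in a fit to the 2 populations compared, with a variance trend and by the adjusted t-test of the methods, 2 with array weights and with log2 of intensity plus 50, 4 by the unadjusted t-test, and 0 to 1 with arrays left out. Between R3 and R1 (5) it was 7 with dim genes left out, 6 with the block, quantile normalization or array weights, 4 in the fit to the 2 populations, 2 by the adjusted t-test and 3 to 5 with arrays left out, and between R3 and R2 (3) it was 1 to 3 with arrays left out. The block added *Tfe3* between R3 and R1, removed *Klf2* between R2 and R1, and changed no other call of a factor. With arrays left out, log2 fold changes near 0 changed sign for *Nr4a1* (-0.12 to 0.19), *Klf2* (-0.03 to 0.09) and *Pparg* (-0.30 to 0.19) between R3 and R2 and for *Pparg* between R3 and R1 (-0.54 to 0.07). *Maf* was not tested with dim genes left out. The cause of these changes was not tested.

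Of all genes, the 78 called between R2 and R1 became 23 with the block, 38 with arrays centred on their medians, 144 with quantile normalization, 1 in the fit to the 2 populations, 343 with array weights, 46 with a variance trend, 1488 and 1 by the t-test before and after adjustment, and 0 to 124 with arrays left out. Between R3 and R2, 1903 became 3460 and 893 by the t-test and 757 to 2183 with arrays left out, and between R3 and R1, 2693 became 658 by the adjusted t-test and 1117 to 2843 with arrays left out. Quantile normalization gave 100 higher and 44 lower genes between R2 and R1, where the main fit gave 42 and 36.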
